A study of Mus musculus with 7 samples.

Results

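The 44 collagen genes of the deposited table are described here, out of 22173 genes measured. They are the rows whose gene symbol is exactly "Col", a type number, "a" and a chain number, so collagen-like proteins with other names are not members. The table comes from RNA sequencing of 7 mouse spleen libraries, of which 3 came from spleens treated with phosphate-buffered saline (PBS) and 4 from spleens injected 4 times with the biomaterial sHA-X, whose name the labels do not spell out. All 7 spleens had then received hepatocytes, the main cells of the liver, and were taken 30 days after that transplantation. Strain, genotype, sex and age of the mice, the source of the hepatocytes and whether each library is from a separate animal do not appear in the labels, so a p-value here speaks only to spread among these libraries. The series asks whether the remodelled spleen can hold liver cells, and its title names transforming growth factor beta, a secreted factor long known to raise collagen gene expression in fibroblasts.

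Collagens are proteins of 3 chains wound into a triple helix, and each gene encodes 1 chain. Fibrillar collagens (types I, II, III, V, XI, XXIV and XXVII) form the rope-like fibrils of connective tissue, and the spleen's capsule, trabeculae and reticular meshwork are rich in them. Type IV collagen forms the flat network of basement membranes, type VI forms beaded filaments around cells, and fibril-associated collagens coat the fibrils. Chains are hydroxylated and folded in the endoplasmic reticulum, trimmed outside the cell and crosslinked by lysyl oxidases.

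Levels are FPKM, fragments scaled to gene length and library size, so they can be compared between genes. Between 29543963 and 37142126 reads per library were recovered from the steps of the values. They are reads assigned to genes above 0 in at least 2 libraries, not all reads of a library. Tests were made with limma on log2(FPKM + 1) over all 11920 genes with a mean of at least 1 FPKM, with Benjamini-Hochberg adjustment over all of them, and the call threshold was an adjusted p of 0.05. The spleen markers Cd79a, Ms4a1, Cd3e, Spic, Slc40a1, Vcam1, Tlx1 and Nkx2-5 were above 0 in every library. PBS replicate 2 stood apart by its pancreatic acinar markers, with a summed level of 830.5 FPKM against 15.4 to 35.1 FPKM in the other libraries, and sHA-X replicate 2 by its skeletal muscle markers (170.2 FPKM against 4.58 to 10.03 FPKM). The mesothelial markers were also highest in sHA-X replicate 2 (31.4 FPKM against 6.53 to 20.9 FPKM), as were the adipocyte markers (65.8 FPKM against 7.48 to 28.9 FPKM). Hepatocyte markers reached a sum of 634.4 FPKM in sHA-X replicate 3 and 665.7 FPKM in sHA-X replicate 4, against 2.27 to 20.4 FPKM elsewhere.

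Of the 44 collagens, 24 passed the filter on low values, 14 of them were higher in sHA-X, 3 were lower and 7 did not pass the test. Among all genes tested, 9.3% were called higher and 5.03% lower. Of all those calls 64.9% were in the higher direction, against 54.3% with median-of-ratios scaling and 44.7% with quantile normalization, which called 13 and 12 collagens higher and 3 lower each. Groups were fully separated for 14 tested collagens in the higher direction, against 17.2% of all genes, and for 3 in the lower direction, against 11.5% of all genes. The median log2 change was 0.37 over the 24 collagens tested and 0.03 over all genes. Col8a1 passed the filter only through its sHA-X values and Col28a1 only through its PBS values, so the filter itself favoured a difference in these 2 genes. By type, 5 of 7 tested fibrillar genes were higher and none lower, 2 of 3 type IV genes were lower and none higher, 3 of 4 type VI genes were higher and 1 lower, 2 of 3 fibril-associated genes were higher, and 4 of 7 other collagens were higher. Without PBS replicate 2 the count of higher collagens was 9, where 721 of all genes were called higher, against 1108 with all 7 libraries. The count of lower collagens was 1 when PBS library 1 or 3, or sHA-X library 1 or 3, was left out. Over all genes those fits called 232, 641, 344 and 328 lower, in that order, against 600 with all 7 libraries. Each of the 7 fits with 1 library left out called the same 10 of the 17 genes. The direction of the 17 was the same in all 18 alternatives run. Their groups were fully separated, so leaving libraries out could not reverse a direction, and those fits add no support for it.

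**Figure D1:**
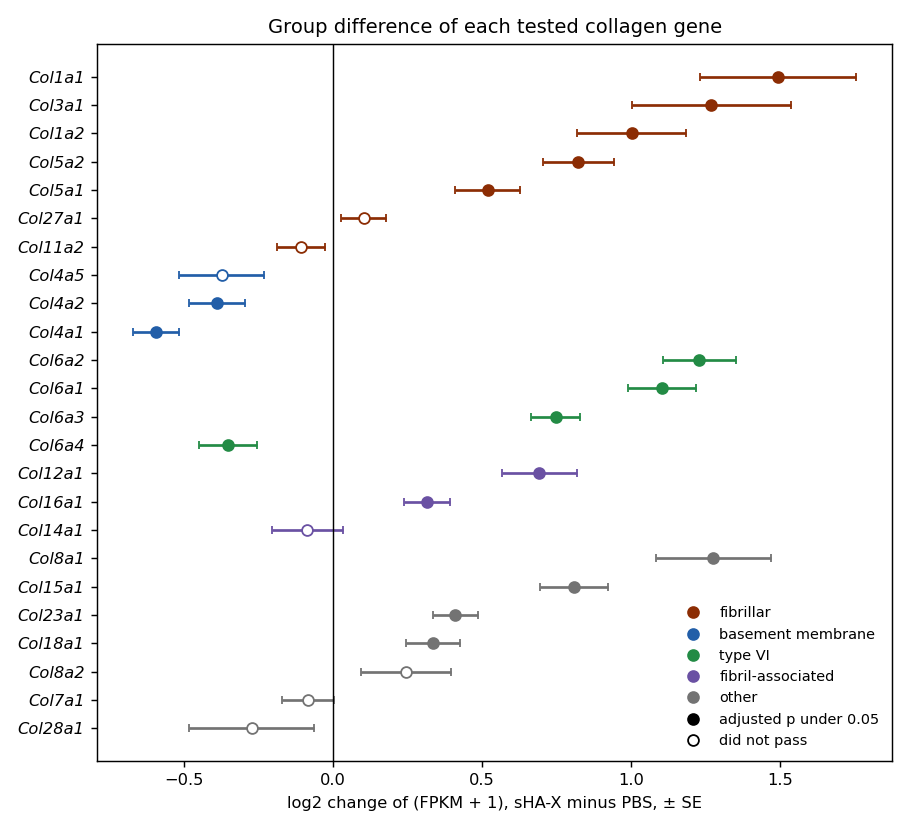
The log2 change of (FPKM + 1), sHA-X minus PBS, with its SE is plotted for each of the 24 tested collagens, coloured by type, with filled points for an adjusted p under 0.05. Type I, III, V and VI chains lie to the right of 0 except Col6a4, and the type IV chains lie to the left, from Col4a5 at -0.37 to Col4a1 at -0.59.

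Start-site sequences were looked at because members of several types rose together. The RefSeq table of promoter windows (GRCm38.p6) held 35 of the 44 collagens. The 250 bases before the start of each entry are shown for 4 genes that rose, namely Col3a1, Col5a1, Col6a3 and Col8a1. These are examples from several types whose windows overlap no annotated untranslated region, which also holds for Col15a1, Col16a1 and Col23a1. Capitals mark the motifs CCAAT (the CCAAT box), GGGCGG (a GC box) and TATAAA (the TATA box), searched on both strands with overlaps allowed. The windows are chr1:45311288-45311537 (plus strand), chr2:27886175-27886424 (plus), chr1:90843972-90844221 (minus) and chr16:57754738-57754987 (minus). The start of an entry can lie inside the full annotated span of the gene. Col5a1 begins at 27886381 and Col6a3, on the minus strand, at 90844001, so both windows end inside the gene. Those of Col3a1 and Col8a1 end just before it. The Col15a1 window lies wholly inside its gene, that of Col23a1 almost wholly and that of Col16a1 in part.
Col3a1: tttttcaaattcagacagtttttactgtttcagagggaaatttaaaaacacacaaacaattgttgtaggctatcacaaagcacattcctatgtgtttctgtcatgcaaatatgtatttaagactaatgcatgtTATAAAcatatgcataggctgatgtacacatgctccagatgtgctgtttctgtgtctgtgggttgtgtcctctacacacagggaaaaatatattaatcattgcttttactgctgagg
Col5a1: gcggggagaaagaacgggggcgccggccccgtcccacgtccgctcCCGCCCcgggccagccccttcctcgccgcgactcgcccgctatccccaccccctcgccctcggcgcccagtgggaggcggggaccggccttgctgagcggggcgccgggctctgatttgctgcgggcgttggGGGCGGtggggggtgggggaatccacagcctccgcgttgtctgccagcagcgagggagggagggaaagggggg
Col6a3: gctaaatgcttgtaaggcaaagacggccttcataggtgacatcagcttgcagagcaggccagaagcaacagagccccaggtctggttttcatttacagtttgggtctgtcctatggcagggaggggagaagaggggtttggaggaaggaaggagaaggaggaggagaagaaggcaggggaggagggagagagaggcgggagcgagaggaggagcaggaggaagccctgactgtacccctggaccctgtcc
Col8a1: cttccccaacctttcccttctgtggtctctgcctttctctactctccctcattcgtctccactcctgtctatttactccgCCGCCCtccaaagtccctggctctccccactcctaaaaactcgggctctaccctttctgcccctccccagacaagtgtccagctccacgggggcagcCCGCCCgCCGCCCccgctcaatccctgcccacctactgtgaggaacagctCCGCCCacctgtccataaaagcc
The windows differed in base composition, with 35.2% G and C in Col3a1, 76.4% in Col5a1, 57.2% in Col6a3 and 60.8% in Col8a1. The Col3a1 window held 1 TATAAA match, 117 bases before the start, and no GGGCGG. Col5a1 held 2 GGGCGG matches and Col8a1 4, and the Col6a3 window held none of the 3 motifs. Of 11 higher collagens with a window, 7 held GGGCGG (63.6%, against 32.7% of all 32851 windows), 3 held CCAAT (27.3%, against 33.8%) and 1 held TATAAA (9.09%, against 12.4%). These counts took 1 window per gene. Col18a1 has 2 windows, and the 1 counted held GGGCGG and CCAAT, while its other window held none of the 3 motifs. GGGCGG was also in 5 of the 6 collagens that did not pass the test and had a window. All 3 lower collagens, Col4a1, Col4a2 and Col6a4, held CCAAT (against 33.8% of all windows), and 2 of them held GGGCGG. Each of these 3 windows overlaps an annotated untranslated region. A match of letters is a description and does not show that a factor binds there.

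The largest rises in level, as differences between group means in FPKM, were those of the fibrillar genes Col3a1, Col1a2 and Col1a1. Col1a1 encodes the chain that occurs in 2 copies in each type I molecule, the main collagen of scar, skin and bone. It lies on chromosome 11 at 94936224 to 94953042 (RefSeq annotation of GRCm38, as are all positions here). Its level was 21.5, 16.9 and 18.5 FPKM in PBS libraries 1, 2 and 3, and 84.9, 38.2, 57.3 and 48.9 FPKM in sHA-X libraries 1, 2, 3 and 4, the order used for all values here. Every sHA-X library was above every PBS library, with sHA-X replicate 1 highest and sHA-X replicate 2 lowest of its group. The ratio of means was 3.02 and the log2 change 1.49 (SE 0.26, adjusted p = 0.016 by limma).

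Col1a2, the second chain of type I, measured 50.5, 39.3 and 47.2 FPKM in PBS and 125.8, 76.6, 94.8 and 78.3 FPKM in sHA-X, with log2 change 1.0 and SE 0.18 (limma adjusted p = 0.015). Col3a1, the only chain of type III, which makes the fine reticular fibres of lymphoid organs, measured 63.8, 44.2 and 49.7 FPKM in PBS and 188.8, 87.4, 123.3 and 126.9 FPKM in sHA-X, with log2 change 1.27 and SE 0.27 (limma adjusted p = 0.028). Again no sHA-X library fell within the PBS range, and sHA-X replicate 1 was highest for both. Each of these 3 calls was lost in at least 1 fit with a library left out. Over all genes, 1108 were called higher with all 7 libraries. That count was 494 without PBS replicate 1, 721 without PBS replicate 2 and 1262 without PBS replicate 3. It was 776 without sHA-X replicate 3 and 700 without sHA-X replicate 4. Col1a1 had an adjusted p of up to 0.057 without PBS replicate 1 or 2, and Col1a2 of 0.0503 without PBS replicate 2. Col3a1 lost its call when any 1 PBS library, or sHA-X library 3 or 4, was left out, with an adjusted p of up to 0.086.

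Type V collagen sits inside type I fibrils and limits their width. Its chain Col5a1 measured 5.38, 5.46 and 4.06 FPKM in PBS and 8.61, 6.67, 7.30 and 7.53 FPKM in sHA-X, with log2 change 0.52 and SE 0.11 (limma adjusted p = 0.018). Col5a2 measured 8.75, 6.60 and 7.69 FPKM in PBS and 17.1, 13.4, 12.4 and 14.6 FPKM in sHA-X, with log2 change 0.82 and SE 0.12 (limma adjusted p = 0.0037). The groups did not overlap for either gene, and both calls held when any single library was left out. The spread within sHA-X was smaller for the type V chains than for type I and III, with a coefficient of variation of 10.8% for Col5a1 and 14.1% for Col5a2 against 34.8% for Col1a1, 24.3% for Col1a2 and 32.0% for Col3a1.

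The other fibrillar genes tested did not pass. Col27a1 was 1.84 ± 0.15 FPKM in the PBS group (SD, n = 3) and 2.05 ± 0.10 FPKM in sHA-X (SD, n = 4), with an adjusted p of 0.41 by limma. Col11a2, a chain of the type XI collagen best known from cartilage, was 1.40 ± 0.071 and 1.23 ± 0.11 FPKM (adjusted p = 0.42 by limma). Col5a3 averaged 0.889 FPKM and was under the filter, with 1.06, 0.665 and 0.645 FPKM in the PBS group and 0.802 to 1.17 FPKM in sHA-X. Col2a1 and Col11a1, the other cartilage chains, reached at most 0.0106 and 0.102 FPKM in any library. Col24a1 had 0 reads in each PBS library and 18, 1, 1 and 2 reads in sHA-X replicates 1 to 4, so 18 of the 22 reads came from 1 library.

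Fibroblasts are the main makers of fibrillar collagen, and their markers moved with these genes. Of 9 fibroblast markers, all tested, 8 rose, where 9.3% of all genes were called higher, and none was at 0 in any library. Pdgfra did not pass (adjusted p = 0.11 by limma), and the Pdgfrb call was lost in each of the 7 fits with a library left out. The count of higher markers was 5 without PBS library 1 or without PBS library 2, where 494 and 721 of all genes were called higher. Lum passed the filter only through its sHA-X values. The summed level of the 9 markers was 138.8 to 195.0 FPKM in the PBS group and 301.1 to 426.0 FPKM in sHA-X. It was highest in sHA-X replicate 1, as for Col1a1, and next in sHA-X replicate 2, which was lowest of its group for Col1a1. In 6 markers of reticular fibroblasts Pdpn rose, Cxcl13 fell and 4 did not pass, and the sums overlapped (466.1 to 592.5 FPKM in PBS, 380.2 to 568.4 FPKM in sHA-X). Of 7 tested smooth muscle and pericyte markers only Rgs5 rose (sums of 152.2 to 180.7 and 179.8 to 199.6 FPKM). In whole tissue, more cells of a type and more RNA per cell cannot be told apart, and the part of fibroblast number in the collagen levels was not tested. In sHA-X replicate 1, where Col1a1 and Col3a1 were highest, the hepatocyte markers summed to 4.10 FPKM. Any part of hepatocytes in the collagen levels was not tested. With only sHA-X replicates 1 and 2 kept beside PBS, the log2 change was 1.55 for Col1a1 (adjusted p = 0.13 by limma) and 1.29 for Col3a1 (adjusted p = 0.19), and neither passed. In that smaller comparison 6 collagens were higher and 1 was lower, where 387 of all 11920 genes were called higher and 115 lower.

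**Figure D2:**
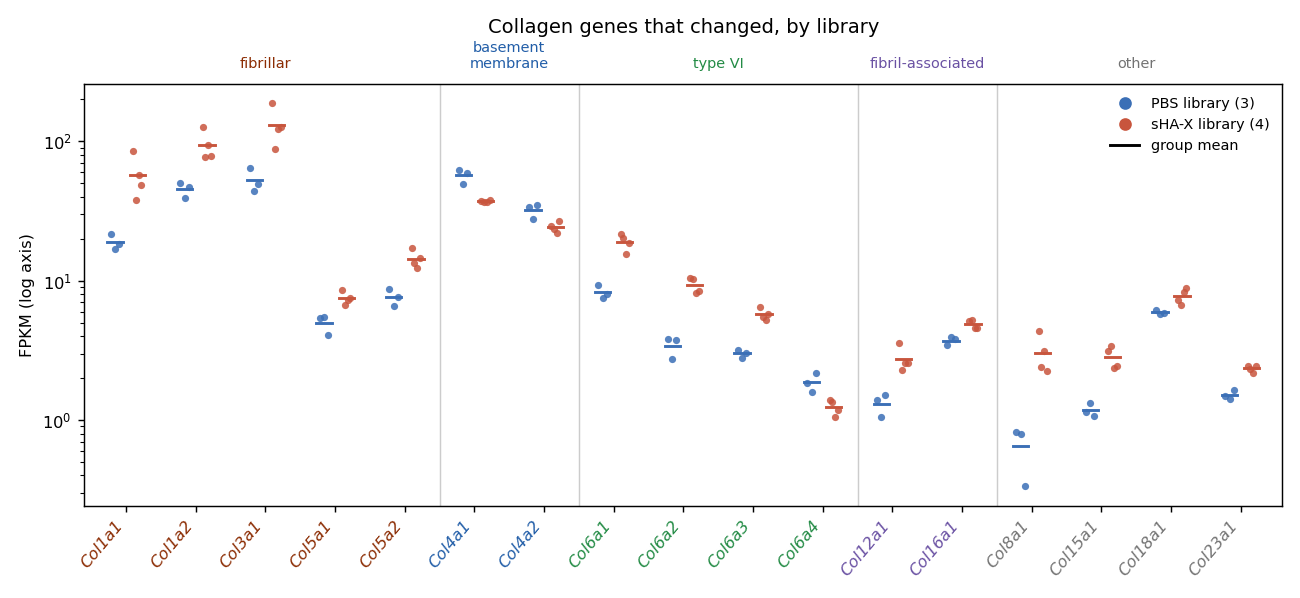
FPKM of the 17 called collagens is plotted on a log axis for each library, PBS in blue and sHA-X in red, with a bar for the group mean. The red points of Col1a1, Col1a2 and Col3a1 spread widely, up to 188.8 FPKM for Col3a1 in sHA-X replicate 1, while those of Col4a1 lie on top of each other between 36.7 and 37.8 FPKM.

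Type IV collagen went the other way. Col4a1 encodes the chain present in all basement membranes, and was 62.0, 49.6 and 59.0 FPKM in PBS and 37.4, 37.0, 36.7 and 37.8 FPKM in sHA-X, with log2 change -0.59 and SE 0.08 (limma adjusted p = 0.0026). Its partner Col4a2 was 34.0, 27.8 and 34.9 FPKM in PBS and 24.6, 23.6, 22.2 and 26.8 FPKM in sHA-X, with log2 change -0.39 and SE 0.09 (limma adjusted p = 0.029). Each sHA-X library was below each PBS library for both genes, and the 4 sHA-X values of Col4a1 had a coefficient of variation of only 1.27%. The Col4a1 call held when any single library was left out. That of Col4a2 was lost in 5 of the 7 such fits (without PBS library 1 or 3, or sHA-X library 1, 2 or 3), with an adjusted p of up to 0.12.

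Col4a5, a chain of specialised basement membranes such as that of the kidney glomerulus, was 2.34, 1.53 and 2.17 FPKM in PBS and 1.15, 1.89, 1.13 and 1.16 FPKM in sHA-X. The groups overlapped through sHA-X replicate 2, and the change did not pass (log2 change -0.37, SE 0.14, adjusted p = 0.12 by limma). Without that library its adjusted p was 0.046 by limma. The skeletal muscle, mesothelial and adipocyte markers were highest in the same library, and their part in the Col4a5 level was not tested. The remaining type IV chains were far under the filter. Col4a3 was 0.146, 0.0907 and 0.117 FPKM in PBS, from 42, 26 and 35 reads, and 0.0105, 0.0225, 0.010 and 0.0299 FPKM in sHA-X, from 3, 6, 3 and 10 reads. Col4a4 reached 0.252 FPKM and Col4a6 0.309 FPKM at most, and their groups overlapped.

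Type IV genes are arranged in head-to-head pairs that are read in opposite directions. Col4a1 (chromosome 8, 11198423 to 11312889, minus strand) and Col4a2 (11312805 to 11449287, plus strand) overlap by 85 bases at their starts. Col4a3 and Col4a4 overlap by 114 bases on chromosome 1, and Col4a5 and Col4a6 are 1274 bases apart on chromosome X. Counting without strand would not tell reads of the overlapping bases apart, and the labels do not say whether strand was used. Type VI genes also lie close to each other, with 85161 bases between Col6a2 and Col6a1 on chromosome 10, and Col6a4, Col6a5 and Col6a6 in a row on chromosome 9. Col3a1 and Col5a2 are neighbours on chromosome 1, 24624 bases apart.

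Of 22 genes for other basement membrane proteins and their partners, 14 were tested, 3 were higher (21.4%, against 9.3% of all genes), none was lower, and 11 did not pass. The core of the list, 15 genes for laminins, nidogens, perlecan and agrin, had 9 tested members and 0 calls by limma, with 2 at an unadjusted p under 0.05, a smallest adjusted p of 0.056 and log2 changes from -0.14 to 0.39. In the same 9 genes voom on recovered reads called 1, the laminin chain gene Lama2, higher. Nid1, which links the laminin and type IV networks, was 28.7 ± 4.35 FPKM in the PBS group and 28.2 ± 2.11 FPKM in sHA-X (SD, n = 3 and 4). Hspg2, the perlecan gene, was 6.25 ± 0.94 and 6.89 ± 0.83 FPKM. The 3 that rose encode proteins that bind to basement membranes or elastic fibres. They were Smoc2 (68.6 ± 4.95 to 130.5 ± 9.65 FPKM, adjusted p = 0.00047 by limma), Fbln1 (1.18 ± 0.37 to 4.59 ± 1.15 FPKM) and Fbln2 (2.14 ± 0.37 to 8.03 ± 2.23 FPKM), and Fbln1 is also one of the fibroblast markers above. Endothelial cells are a main source of type IV collagen. Of 8 endothelial markers, all tested and none at 0, 0 were called by limma (1 at an unadjusted p under 0.05) or by voom, and their sums were 139.2 to 181.6 FPKM in the PBS group and 156.7 to 173.1 FPKM in sHA-X.

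Type VI collagen is built from Col6a1, Col6a2 and one more chain, usually Col6a3, and these 3 genes had the smallest p-values of all collagens. Col6a1 was 9.36, 7.53 and 7.96 FPKM in PBS and 21.7, 20.2, 15.6 and 18.5 FPKM in sHA-X, with log2 change 1.10 and SE 0.11 (limma adjusted p = 0.000975). Col6a2 was 3.80, 2.72 and 3.73 FPKM in PBS and 10.5, 10.3, 8.09 and 8.50 FPKM in sHA-X, with log2 change 1.23 and SE 0.12 (limma adjusted p = 0.00095). Col6a3 was 3.19, 2.80 and 3.03 FPKM in PBS and 6.45, 5.53, 5.22 and 5.74 FPKM in sHA-X, with log2 change 0.75 and SE 0.08 (limma adjusted p = 0.0013). The lowest sHA-X library was above the highest PBS library for all 3 genes, and their calls held when any single library was left out. They also held with only sHA-X replicates 1 and 2 kept, with adjusted p between 0.0061 and 0.016 by limma.

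The chains that can replace Col6a3 did not follow a single direction. Col6a4 was 1.83, 1.59 and 2.16 FPKM in PBS and 1.38, 1.35, 1.05 and 1.18 FPKM in sHA-X, with log2 change -0.35 and SE 0.10 (limma adjusted p = 0.048). The groups did not overlap, but the call was lost in 6 of the 7 fits with a library left out, all but that without PBS replicate 2, with an adjusted p of up to 0.14. Col6a5, under the filter, was 0.341, 0.511 and 0.441 FPKM in PBS and 1.08, 1.26, 0.75 and 0.652 FPKM in sHA-X, with no overlap. Col6a6 reached 0.140 FPKM at most, and its groups overlapped.

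Among fibril-associated collagens, Col12a1, which is known from tendon and healing tissue, was 1.39, 1.04 and 1.5 FPKM in PBS and 3.56, 2.30, 2.58 and 2.58 FPKM in sHA-X, with log2 change 0.69 and SE 0.13 (limma adjusted p = 0.010). Col16a1 was 3.44, 3.91 and 3.80 FPKM in PBS and 5.11, 5.26, 4.56 and 4.56 FPKM in sHA-X, with log2 change 0.31 and SE 0.08 (limma adjusted p = 0.031), a call lost without PBS library 1 or 2, or sHA-X library 1 or 2 (highest adjusted p 0.13). Both genes were separated between the groups. Col14a1 had by far the highest level of this type, with 33.1, 25.5 and 32.5 FPKM in PBS and 31.9, 31.0, 26.6 and 24.6 FPKM in sHA-X. Its groups overlapped and it did not pass (log2 change -0.09, SE 0.12, adjusted p = 0.69 by limma). Col9a1, Col9a2, Col9a3, Col19a1 and Col22a1 reached at most 0.339 FPKM, while Col20a1 lay between 0.775 and 1.24 FPKM.

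Of the remaining collagens, Col8a1 had the largest ratio of means among all 17 called genes. That gene passed the filter only through its sHA-X values, so the filter itself favoured a difference. It encodes a short-chain network collagen known from vessel walls, and was 0.821, 0.790 and 0.333 FPKM in PBS and 4.38, 2.39, 3.13 and 2.24 FPKM in sHA-X, a ratio of means of 4.69 (log2 change 1.28, SE 0.19, adjusted p = 0.0051 by limma). Its partner Col8a2 overlapped between groups, with 4.22, 3.00 and 4.37 FPKM in PBS and 5.53, 5.45, 4.50 and 3.61 FPKM in sHA-X, with a limma adjusted p of 0.32. The difference between the changes of Col8a1 and Col8a2 was not tested.

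Types XV and XVIII are basement membrane zone collagens that carry sugar chains, and type XVIII also releases the fragment endostatin. Col15a1 was 1.14, 1.32 and 1.07 FPKM in PBS and 3.14, 3.39, 2.38 and 2.44 FPKM in sHA-X, with log2 change 0.81 and SE 0.11 (limma adjusted p = 0.0034). Col18a1 was 6.13, 5.73 and 5.90 FPKM in PBS and 7.26, 6.70, 8.31 and 8.80 FPKM in sHA-X, with log2 change 0.34 and SE 0.09 (limma adjusted p = 0.044). Its call was lost in 6 of the 7 fits with a library left out, all but that without sHA-X replicate 2, with an adjusted p of up to 0.11. Col18a1 differed from the fibrillar genes in its order within sHA-X, being highest in replicates 3 and 4. The hepatocyte markers were highest in the same 2 libraries, and their part in the Col18a1 level was not tested. With only sHA-X replicates 1 and 2 kept, its log2 change was 0.21 (adjusted p = 0.24 by limma).

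Col23a1, a membrane-spanning collagen, was 1.5, 1.42 and 1.64 FPKM in PBS and 2.45, 2.32, 2.17 and 2.45 FPKM in sHA-X, with no overlap (log2 change 0.41, SE 0.08, adjusted p = 0.010 by limma). Col7a1, the anchoring fibril collagen of skin, was 1.42 ± 0.036 and 1.29 ± 0.18 FPKM (SD, n = 3 and 4) and did not pass (adjusted p = 0.57 by limma). Col28a1 was 1.52, 1.07 and 1.09 FPKM in PBS and ranged from 0.271 to 1.38 FPKM in sHA-X, with a limma adjusted p of 0.44. The membrane-spanning collagen Col13a1 was 0.423 to 0.640 FPKM in the PBS group and 0.690 to 1.03 FPKM in sHA-X, under the filter. Col10a1, the collagen of hypertrophic cartilage, and Col25a1 stayed at or below 0.0397 FPKM.

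A total of 20 collagens were under the filter, and the groups did not overlap for 7 of them, 3 higher (Col6a5, Col13a1 and Col24a1) and 4 lower in sHA-X. Among all 5673 genes under the filter and above 0 in some library, 8.92% were separated in the higher and 4.44% in the lower direction. The 4 lower were Col4a3, Col17a1, Col22a1 and Col26a1. Col17a1, the hemidesmosome collagen of epithelia, was 0.337, 0.181 and 0.270 FPKM in PBS, from 30, 16 and 25 reads, and 0.0565, 0.0487, 0.0432 and 0.0775 FPKM in sHA-X, from 5, 4, 4 and 8 reads. Col22a1 was 0.163, 0.157 and 0.176 FPKM in PBS and 0.0308, 0.0810, 0.0359 and 0.114 FPKM in sHA-X. Col26a1 was 0.450, 0.428 and 0.330 FPKM in PBS and 0.297, 0.133, 0.244 and 0.205 FPKM in sHA-X. A test of whole reads that reached these genes (limma's voom on the 14797 genes with at least 50 recovered reads in all, chosen after the values were seen) called Col6a5 higher (log2 change 1.06, SE 0.29, adjusted p = 0.047). It also called Col4a3 and Col17a1 lower, but both reached its minimum of 50 reads only through PBS, with 103 and 71 reads in the 3 PBS libraries against 22 and 21 in the 4 sHA-X libraries, so these calls carry no weight. Over its 39 collagens that test made 15 calls higher and 5 lower, where it called 7.58% and 4.69% of all genes.

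The make-up of the collagen messenger RNA shifted with these changes. The order of levels in the PBS means was Col4a1, Col3a1, Col1a2, Col4a2, Col14a1 and Col1a1, from 56.9 down to 19 FPKM. Col4a1 was first in PBS replicates 2 and 3 and Col3a1 in PBS replicate 1, so their order did not hold beyond the spread. In all 4 sHA-X libraries the order began Col3a1, Col1a2, Col1a1 and Col4a1, with Col1a1 at 38.2 and Col4a1 at 37.0 FPKM in sHA-X replicate 2. All 44 genes summed to 296.6 ± 36.0 FPKM in the PBS group and 470.0 ± 91.5 FPKM in sHA-X (SD, n = 3 and 4). Fibrillar genes gave 43.4% to 46.9% of that sum in PBS and 57.8% to 71.4% in sHA-X. Type IV genes gave 30.1% to 31.9% in PBS and 10.5% to 16.1% in sHA-X. Type VI genes gave 5.64% to 5.90% in PBS and 6.83% to 9.90% in sHA-X. Fibril-associated genes, mostly Col14a1, summed to 37.0 ± 4.43 and 37.5 ± 4.14 FPKM. These sums were not tested, since they follow from the genes already described.

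**Figure D3:**
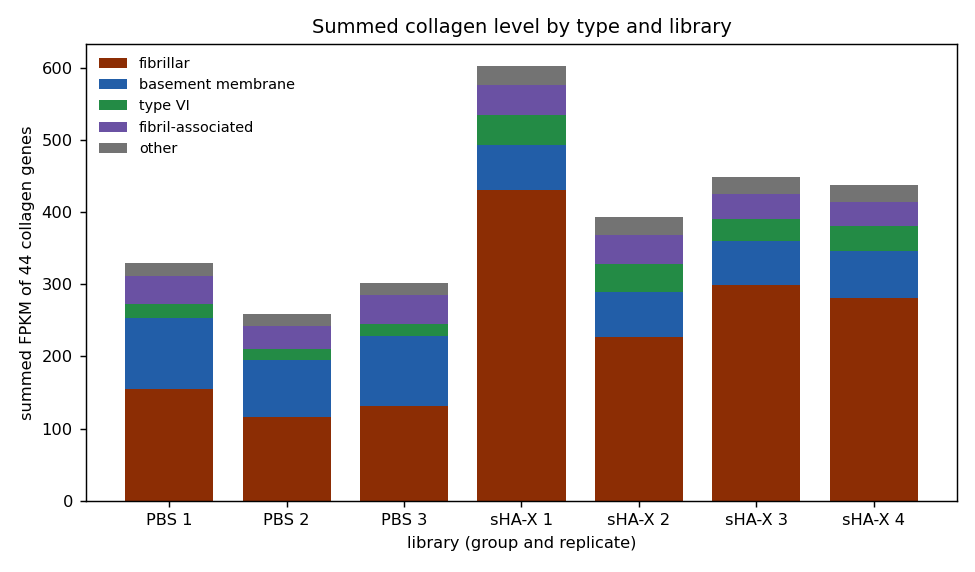
Stacked bars give the summed FPKM of the 44 collagen genes in each library, divided by type. The fibrillar part rises from 116.2 to 154.4 FPKM in the PBS bars to between 226.7 and 430.0 FPKM in the sHA-X bars, and the type IV part shrinks from at least 79.2 FPKM to at most 65.9 FPKM.

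Ratios within a library were compared for 7 pairs of genes, 6 of them of chains that share a molecule or a fibril and 1 of Col4a1 with Col1a1, which belong to different networks. The test was a two-sided exact permutation test over each of the 35 ways to divide 7 libraries into 3 and 4, where the smallest possible p is 0.0286. Col5a1 relative to Col1a1 was 0.250, 0.323 and 0.220 in the PBS libraries, against 0.101, 0.174, 0.127 and 0.154 in sHA-X (exact p = 0.0286, 0.0571 adjusted over the 7 ratios). Col4a1 relative to Col1a1 was 2.88, 2.94 and 3.19 in the PBS libraries, against 0.441, 0.967, 0.641 and 0.774 in sHA-X (exact p = 0.0286, 0.0571 adjusted), which restates the opposite directions of these 2 genes. Both ratios were lower in each sHA-X library than in each PBS library. The other 5 ratios each had an exact p of 0.0571.

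Col1a1 relative to Col1a2 was 0.427, 0.430 and 0.391 in the PBS libraries, against 0.674, 0.499, 0.605 and 0.624 in sHA-X. The type I molecule holds 2 Col1a1 chains for each Col1a2 chain, and the ratio of the messenger RNA levels per length was under 1 in every library. Col3a1 relative to Col1a1 was 2.62 to 2.96 in PBS and 2.15 to 2.60 in sHA-X, and Col4a2 relative to Col4a1 was 0.549 to 0.591 and 0.604 to 0.709. These 3 ratios and that of Col5a2 to Col1a1 did not overlap between the groups, while that of Col6a1 to Col6a2 did. No ratio passed after adjustment.

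**Figure D4:**
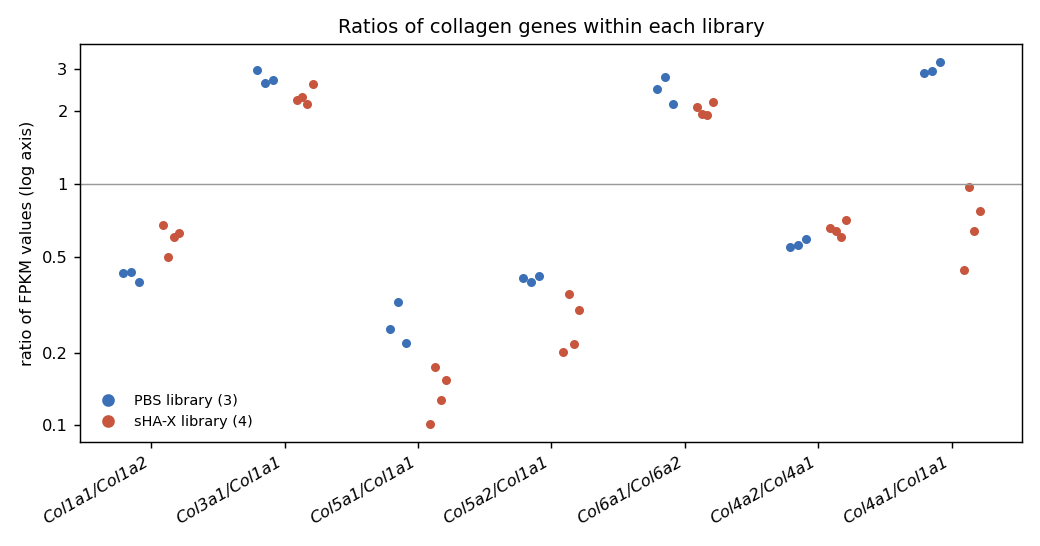
The ratio of FPKM values of 2 collagen genes is plotted on a log axis for each library, PBS in blue and sHA-X in red. The points of Col4a1/Col1a1 are farthest apart, with PBS libraries at 2.88 to 3.19 and sHA-X libraries at 0.441 to 0.967.

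Many enzymes and chaperones of collagen production rose. Of 35 genes of synthesis and processing, 29 were tested, 15 were higher (51.7%, against 9.3% of all genes), 1 was lower (3.45%, against 5.03%) and 13 did not pass, with a median log2 change of 0.39. The higher count was 8 without PBS library 1, and 9 without PBS library 2, sHA-X library 1 or sHA-X library 3. It was also 8 without both second replicates, and 9 with quantile-normalized values. Over all genes the higher count in these settings was 494, 721, 765, 776, 492 and 758, in that order, against 1108 in the main fit. Inside the cell, the beta subunit of prolyl 4-hydroxylase P4hb was 96.6, 94.8 and 106.8 FPKM in PBS and 129.7, 141.3, 130.8 and 149.3 FPKM in sHA-X, with log2 change 0.47 and SE 0.07 (limma adjusted p = 0.0052). Plod3, which hydroxylates lysine and adds sugars, was 10.4 ± 0.18 and 14.8 ± 1.20 FPKM (SD, n = 3 and 4). The collagen chaperone Serpinh1 was 51.2 ± 7.03 and 75.1 ± 5.17 FPKM (adjusted p = 0.0084 by limma).

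Of the proteases that trim procollagen ends outside the cell, Bmp1 and Adamts2 rose and Adamts14 fell. Bmp1, which removes the C-terminal end, was 6.60, 6.53 and 5.89 FPKM in PBS and 11.5, 9.40, 8.90 and 10.1 FPKM in sHA-X, and Adamts2, which removes the N-terminal end, was 2.67, 2.41 and 2.72 FPKM in PBS and 6.30, 4.39, 4.89 and 5.17 FPKM in sHA-X. Their log2 changes were 0.58 and 0.77, with adjusted p = 0.0052 and 0.0032 by limma. Adamts14, a relative of Adamts2, fell from 2.0 ± 0.25 to 1.34 ± 0.19 FPKM (adjusted p = 0.042 by limma), a call lost in 5 of the 7 fits (without PBS library 1 or 3, or sHA-X library 1, 3 or 4), with an adjusted p of up to 0.13. Pcolce, which speeds Bmp1, was 26.7 ± 3.14 and 43.1 ± 5.17 FPKM. The crosslinking enzyme Loxl1 was 4.69, 4.14 and 5.39 FPKM in PBS and 12.1, 10.7, 8.84 and 11 FPKM in sHA-X, with log2 change 1.02 and SE 0.11 (limma adjusted p = 0.0013). Sparc, a collagen-binding protein of the same list, was 270.5 ± 28.8 and 227.6 ± 22.2 FPKM and did not pass (adjusted p = 0.13 by limma).

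Genes that bind or break down collagen were also called often. Of 22 receptor and turnover genes, 18 were tested, 10 were higher (55.6%, against 9.3% of all genes), 2 were lower (11.1%, against 5.03%) and 6 did not pass. Of the 10, Itga11 passed the filter only through its sHA-X values (means of 0.748 FPKM in the PBS group and 1.59 FPKM in sHA-X). The higher count was 5 without PBS replicate 1, 6 without PBS library 2 or sHA-X library 1, 2 or 4, and 1 without both sHA-X replicates 3 and 4. Over all genes those fits called 494, 721, 765, 777, 700 and 387 higher, in that order, against 1108 in the main fit. Mmp2, a gelatinase, was 7.69, 5.45 and 6.79 FPKM in PBS and 24.2, 14.6, 17.3 and 17.2 FPKM in sHA-X, with log2 change 1.33 and SE 0.17 (limma adjusted p = 0.0036). Ctsk, a lysosomal protease that cuts the triple helix, was 4.85, 3.85 and 5.25 FPKM in PBS and 19.7, 10.7, 16 and 14.7 FPKM in sHA-X, with log2 change 1.51 and SE 0.19 (limma adjusted p = 0.0034). As for Col1a1, sHA-X replicate 1 was highest and sHA-X replicate 2 lowest for both proteases.

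Mmp14, which activates Mmp2 at the cell surface, was 23.8 ± 1.21 FPKM in the PBS group and 35.4 ± 4.28 FPKM in sHA-X (SD, n = 3 and 4). The collagen uptake receptor Mrc2 was 1.68 ± 0.11 and 3.06 ± 0.39 FPKM, the gelatinase Mmp9 9.11 ± 1.96 and 15 ± 0.90 FPKM, and the inhibitor Timp2 63.9 ± 9.75 and 90.7 ± 7.72 FPKM. The Timp2 call was lost without PBS library 1 or sHA-X library 1, 2 or 4 (highest adjusted p 0.059). Timp1, another inhibitor, had the largest log2 change of the 3 lists, 1.72 (SE 0.37, adjusted p = 0.034 by limma), and its call was lost in 6 of the 7 fits with a library left out, all but that without sHA-X replicate 2 (highest adjusted p 0.11), and with voom on recovered reads (adjusted p = 0.065). The 2 that fell encode collagen receptors found on platelets. Gp6 was 3.29, 2.61 and 3.05 FPKM in PBS and 1.42, 1.55, 1.70 and 1.23 FPKM in sHA-X, with log2 change -0.69 and SE 0.10 (limma adjusted p = 0.0036), and Itga2 was 3.84 ± 0.59 and 2.55 ± 0.21 FPKM (adjusted p = 0.023), a call lost without PBS library 1 or sHA-X library 2 or 4 (highest adjusted p 0.096).

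**Figure D5:**
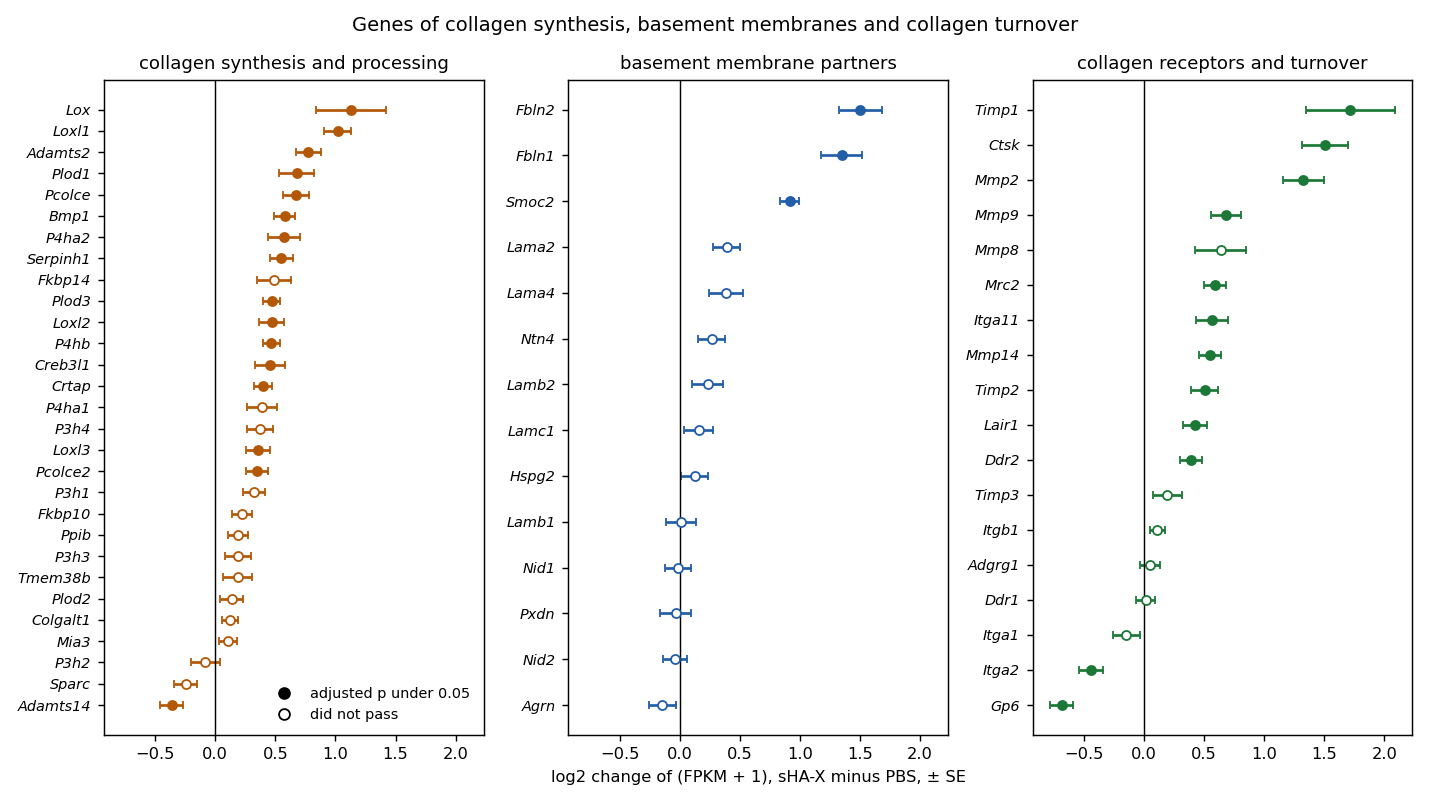
The log2 change of (FPKM + 1), sHA-X minus PBS, with its SE is plotted for the tested genes of 3 lists, with filled points for an adjusted p under 0.05. Most filled points lie to the right of 0, with Adamts14, Itga2 and Gp6 filled on the left and the laminin and nidogen genes unfilled.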

How the data were processed

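RNA was isolated with TRIzol and made into libraries with a VAHTS Universal V6 kit, per the labels' protocols. Tools in the submitters' processing notes are fastp, HISAT2, HTSeq, DESeq2 and R 3.2.0, with mm10 as the build, but not their roles. The deposited values, 1 per gene and library, were read as FPKM computed by the authors, because each gene's values are whole multiples of a step. Whole reads (within 0.01) were recovered for the 16889 genes above 0 in at least 2 libraries.

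The model was limma 3.58.1 in R 4.3.3 (trend and robust variance) on log2(FPKM + 1), over genes with a mean of at least 1 FPKM. On this scale the change of low genes is understated. Read recovery and the limma fit were tested on simulated data. Alternatives were another pseudocount, filter, scaling and variance model, voom on recovered reads, a replicate block, (FPKM + 1) in the ratios, and fits without libraries. Positions and windows are from RefSeq (GRCm38.p6), and strands and untranslated regions from GENCODE M21. The naming rule took all collagens, with ranges for those under the filter, and from each other list up to 6 called genes a direction with the smallest p. Members, lists and markers were chosen with earlier results of these data known. Serpinh1, Nid1, Hspg2, Lama2, Sparc, Timp1, Lum, Itga11, Pdgfra and Pdgfrb, and the collagens under the filter that are given library by library, were singled out after their values were seen. Some items of the lists are not reported here.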

Additional observations from a re-analysis of the deposited data

Results flagged for a closer look

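Within the 4 sHA-X libraries, 2 of 42 genes had 1 library far from the other 3 by Dixon's test, and chance flags about 1 in 20. Col4a5 was 1.89 FPKM in sHA-X replicate 2, above the other 3 libraries of that group (gap over range 0.959). Timp2 was 79.2 FPKM in sHA-X replicate 3, below the other 3 (0.862).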

How the results depend on the processing

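The 17 called collagens kept their direction in all 18 alternatives, which leaving libraries out could not change because their groups were fully separated. Without 1 library the higher and lower counts were 9 to 13 and 1 to 3 for collagens, 8 to 15 and 0 to 1 for synthesis genes, and 5 to 9 and 1 to 2 for receptor and turnover genes. Without both sHA-X replicates 3 and 4 they were 6 and 1, 8 and 0, and 1 and 1. Over all genes the counts with all 7 libraries were 1108 higher and 600 lower. They were 494 to 1262 and 232 to 641 without 1 library, and 387 and 115 without both sHA-X replicates 3 and 4. Without both second replicates 8 synthesis and 6 receptor and turnover genes were higher. Quantile normalization gave 9 higher synthesis genes, and turned Col27a1 to -0.012 on the log2 scale. Col14a1 turned to 0.057 without both sHA-X replicates 3 and 4, and was -0.24 without both second replicates. With no filter 0 synthesis genes and 1 basement membrane partner gene were lower, and the filter at 0.3 FPKM also gave 1. Voom on genes with at least 50 reads, added after the data were seen, gave 5 lower collagens (Col4a3 and Col17a1 among them, which passed its filter only through PBS) and 1 lower partner gene. The cause of these changes was not tested. Same-numbered libraries did not deviate together (correlations of 0.15, -0.21 and -0.29 over 11920 genes), so the labels' numbers were not taken to pair libraries. A fit with the replicate block gave 9 higher and 1 lower collagens, 4 and 0 synthesis genes, and 3 and 0 receptor and turnover genes. That fit called 276 of all genes higher and 72 lower. The Col6a1 to Col6a2 log2 difference moved from -0.26 to -0.13 with 1 FPKM added to both. Collagens under 0.2 FPKM rest on few reads.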
